A study of Danio rerio with 2 samples.

Results

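The 43 genes described here code for collagens, laminins and integrins, and were measured in zebrafish embryos at 3 dpf (days post fertilization). They were taken by name: every transcript probe whose RefSeq accession belongs to a gene named as a collagen (*col* and a type number), a laminin chain (*lama*, *lamb*, *lamc*) or an integrin (*itga*, *itgb*), with genes named *col10a1* left out. This gave 21 collagen, 6 laminin and 16 integrin genes, out of 12857 genes that could be named on the arrays. A further 64 genes with such names in the reference table were not matched to a probe and are not analysed here. These were 37 of 58 collagen, 8 of 14 laminin and 19 of 35 integrin names. Of type IV collagen only *col4a5* was matched, and *col4a1* and *col4a2* were not. Among the 16 named as integrins, *itgb1bp1* codes for a protein that binds an integrin tail and *itgbl1* for an integrin-like secreted protein, so 14 are integrin chains.

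One group had received 8 ng of *miR-132* MO as one-cell embryos, a morpholino (an antisense oligonucleotide) that knocks down the microRNA *miR-132*, and the other 8 ng of a control morpholino (Ctrl MO). Embryos of both groups were freed of the chorion with pronase and kept in diluted Hanks' solution. By the study's husbandry methods, phenylthiourea (PTU) was added to this solution to keep pigment from forming. The comparison asks how gene expression differs after the knockdown. Total RNA was labelled with Cy3, and both arrays lay on 1 slide. Each group is 1 one-colour Agilent array, so no replicate error exists, no test was made, and every difference below compares these arrays and not the conditions. The labels do not say how many animals each RNA came from or whether they were chosen by phenotype, such as bleeding, and the injection was not confined to any cell type.

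Collagens are the main proteins of the extracellular matrix. Their chains wind into a triple helix, and the helices assemble into fibrils, as in skin, bone and cartilage, or into sheets, as in basement membranes. Laminins are cross-shaped trimers of an alpha, a beta and a gamma chain that lay down the basement membrane under epithelia and around vessels, muscle and nerve. Integrins are receptors of an alpha and a beta chain that hold cells to both. In zebrafish these genes are best known from the notochord, whose sheath is made of collagen and laminin, and from cartilage, skin, muscle attachments and the vessel wall.

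The probe signal is the scanner's background-subtracted intensity. The 75th percentile of intensity was 866 on the *miR-132* MO array and 731 on the Ctrl MO array, and the scaled level of a probe is its log2 intensity minus the log2 of that percentile. Before this scaling, 78 of the 85 probes used read higher on the *miR-132* MO array, whose 75th percentile was itself higher by 0.25 on the log2 scale. After it, 61 of the 85 did. Of the transcript spots, 80.3% on the *miR-132* MO array and 88.0% on the Ctrl MO array were well above background, and 0 were saturated. The SD over 153 negative control spots was 19.4 on the *miR-132* MO array and 4.17 on the Ctrl MO array, and the part of this in the results was not tested. The 43 genes were measured by 86 probes, of which 85 were well above background on at least 1 array and 81 on both, so that every gene kept at least 1 probe. Intensity ran from 10.5 to 159036 among these 85 probes on the *miR-132* MO array and from 9.01 to 118776 on the Ctrl MO array. It depends on the probe as well as the transcript, so levels of different genes are not set against each other. A yardstick of spot noise came from 25 other probes that are printed on 5 spots each: the SD of the log2 ratio of a spot had a median of 0.10 and ran from 0.014 to 0.47. This covers the printing and reading of spots only, not the variation between pools of embryos.

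Collagen and integrin genes leaned towards the *miR-132* MO array, though the integrin median fell to 0.021 with normexp background correction. The laminin median lay near 0, on either side of it depending on the scaling (0.024 with spike-in scaling). Throughout, the ratio is the level in *miR-132* MO divided by that in Ctrl MO embryos, on the log2 scale. Its median was 0.22 over the 21 collagen genes, 0.16 over the 16 integrin genes and -0.033 over the 6 laminin genes, beside -0.0033 over all 12307 genes with a ratio. In RNA of embryos with many tissues, more cells of a type and more RNA per cell cannot be told apart. Ratios above 0 were found for 16 of 21 collagen, 12 of 16 integrin and 3 of 6 laminin genes, against 47.4% of all genes. In these counts and in the integrin median, *itga2b* stands at a bound of -0.11, described below. *itgb5* is among the 12 integrin genes above 0 through a probe not well above background on the Ctrl MO array. Without that probe it stood at -0.10. At least 1.5-fold higher were 4 collagen genes and 1 integrin gene, which is 19.0% of the collagens and 6.25% of the integrins, against 3.91% of all genes. At least 1.5-fold lower were 0 of the 43 genes apart from *itga2b*, against 8.2% of all genes. *itga2b* has only a bound (at least 1.08-fold lower, but a log2 ratio of 0 with quantile normalization) and could not be placed. At 2-fold, 2 were higher and 0 lower with the same exception, against 0.999% and 3.58% of all genes. The nearest genes inside the 1.5-fold limit were *itgb3a* (0.50), *col2a1a* (0.46) and *itgb1b.2* (0.46), and the nearest beyond it was *col9a2* (0.64). The collagen median exceeded the laminin median by 0.25, and the integrin median exceeded that of the laminins by 0.19. Between collagens and integrins the gap was only 0.057. The spot noise of 0.10 is that of single spots and gives no error for a difference of medians. The ranges overlapped: collagens lay between -0.24 and 1.72, and all laminins, between -0.17 and 0.14, fall inside that span. Integrins other than *itga2b* lay between -0.19 and 0.68. Genes of a family are not replicates, so these differences carry no test.

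**Figure D1:**
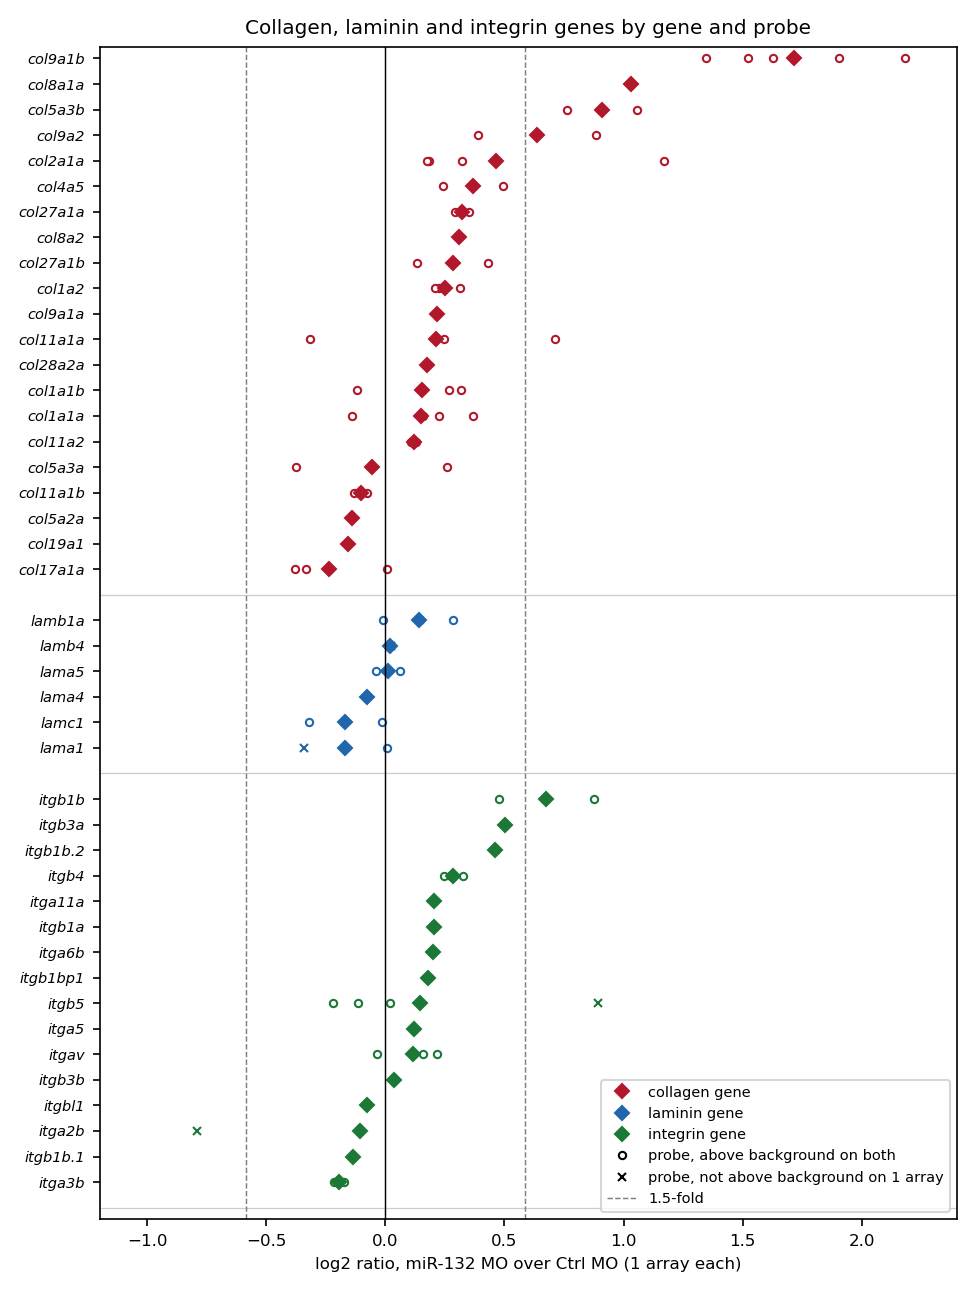
Each row is a gene, grouped by family and sorted by its log2 ratio, *miR-132* MO to Ctrl MO (x axis). Diamonds are gene values, open circles and crosses are single probes, and dashed lines mark 1.5-fold. The 4 collagens and 1 integrin beyond the right line are the only genes past it, no diamond lies beyond the left line, and *itga2b* is drawn at its bound (-0.11), apart from its probe at -0.79.

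**Figure D2:**
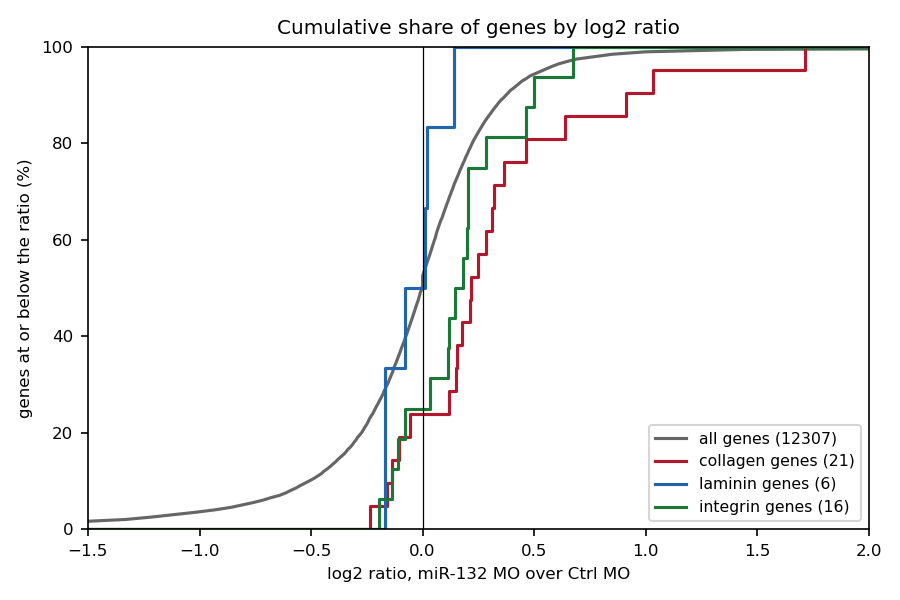
Cumulative share of genes (y axis, percent) at or below each log2 ratio, *miR-132* MO to Ctrl MO (x axis), for the 3 families and all 12307 genes. The collagen curve runs to the right of all genes over most of its course, while the 6 laminins stay within -0.17 and 0.14.

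The type IX collagen gene *col9a1b* (gene 406548) stood furthest out. Type IX collagen sits on the surface of type II fibrils in cartilage and in the notochord sheath. All 5 probes of *col9a1b* read higher after *miR-132* MO. The brightest probe gave an intensity of 21351 in *miR-132* MO and 5826 in Ctrl MO embryos, and the next gave 18397 in *miR-132* MO and 5405 in Ctrl MO embryos. The other 3 gave 2677, 513 and 174 in *miR-132* MO embryos, beside 603, 95.3 and 57.6 in Ctrl MO embryos. After scaling, the log2 ratios of the 5 probes lay between 1.35 and 2.18. Their mean was 1.72, a 3.29-fold higher level in *miR-132* MO embryos. The lowest of the 5 probe ratios is still past 1.5-fold, and they span a range of 0.84.

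The other type IX genes measured, *col9a2* and *col9a1a*, differed less, and *col9a3* was not matched to a probe. *col9a2*, which codes for the alpha 2 chain of type IX, gave intensities of 33618 and 1398 on its probes in *miR-132* MO embryos and 21627 and 638 in Ctrl MO embryos. Its probe ratios were 0.39 and 0.89 on the log2 scale, with a mean of 0.64 (1.56-fold), so that only the dimmer probe was past 1.5-fold. *col9a1a*, the paralog of *col9a1b*, had 1 probe, at 1046 in *miR-132* MO and 758 in Ctrl MO embryos and a log2 ratio of 0.22. The paralogs thus had ratios of 1.72 for *col9a1b* and 0.22 for *col9a1a*.

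The other collagens past 1.5-fold were *col8a1a* and *col5a3b*. *col8a1a* codes for a chain of type VIII, a network-forming collagen that the zebrafish notochord needs. Its single probe read 860 in *miR-132* MO and 355 in Ctrl MO embryos, a log2 ratio of 1.03 (2.04-fold). *col5a3b* codes for a chain of type V, which starts and thins type I fibrils. Its probes read 1388 and 144 in *miR-132* MO embryos and 690 and 58.6 in Ctrl MO embryos, with log2 ratios of 0.76 and 1.06 and a mean of 0.91 (1.88-fold). The other type V genes were not higher: *col5a3a* was at -0.057, with probes at -0.37 and 0.26, and *col5a2a* at -0.14.

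**Figure D3:**
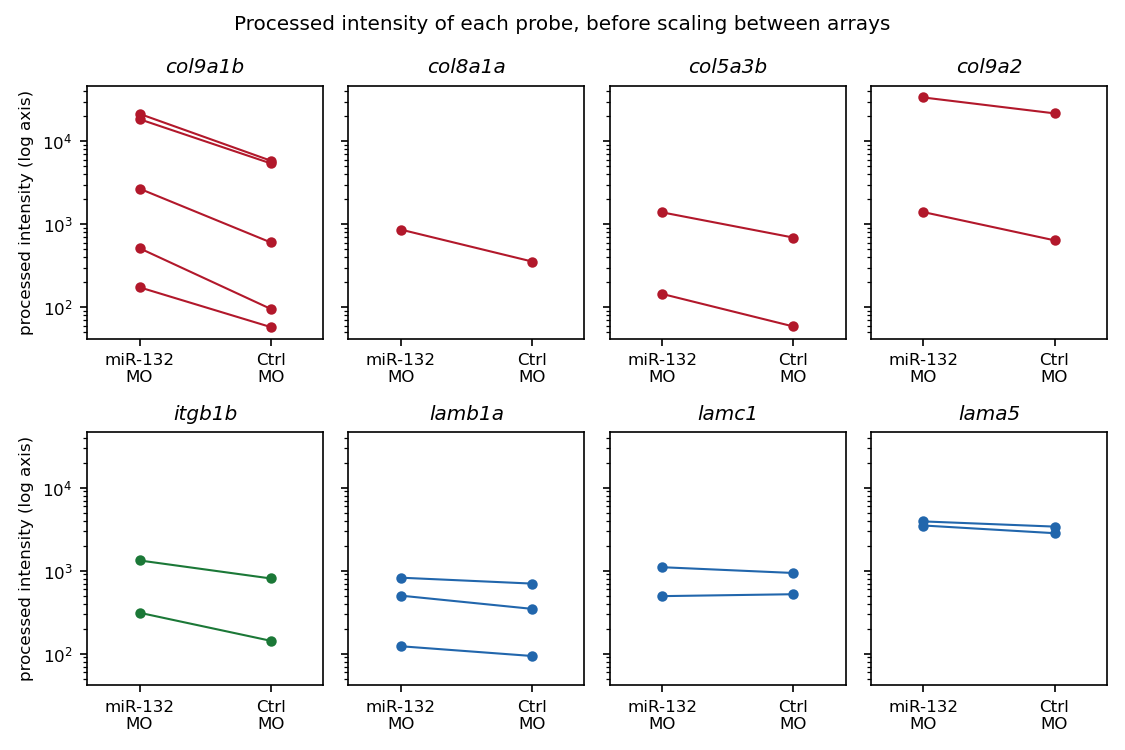
Processed intensity (y axis, log scale) of each probe on the *miR-132* MO array (left point) and the Ctrl MO array (right point), before scaling, for the 5 genes past 1.5-fold and 3 laminin genes. All probes of *col9a1b*, *col8a1a*, *col5a3b*, *col9a2* and *itgb1b* slope down towards Ctrl MO, and a slope of 0.25 on the log2 scale is the difference between the arrays' 75th percentiles.

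The collagens of cartilage fibrils otherwise lay within 1.5-fold. *col2a1a*, the type II chain, had scaled levels of 3.89 in *miR-132* MO and 3.42 in Ctrl MO embryos, a log2 ratio of 0.46. This mean rests in part on 1 of its 4 probes, at 1.17, while the others were at 0.18, 0.18 and 0.32. Type XI collagen forms the core of the same fibrils. Its genes were at 0.21 for *col11a1a*, 0.12 for *col11a2* and -0.10 for *col11a1b*. The 3 probes of *col11a1a* did not point one way, at 0.71, 0.24 and -0.32, a range of 1.03 that is the widest among the collagens. Of the 7 genes of types II, IX and XI, 6 were above 0, with a median of 0.22, and the median of the other 14 collagens was 0.21. The type XXVII genes, which code for fibrillar collagens of cartilage and notochord, lay close together at 0.32 for *col27a1a* and 0.28 for *col27a1b*, all 4 probes above 0.

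Type I collagen is the main fibril of skin, bone and tendon, and its 3 genes all lay within 1.5-fold. *col1a1a*, *col1a1b* and *col1a2* had scaled levels of 4.44, 4.73 and 5.29 in *miR-132* MO embryos and 4.29, 4.57 and 5.04 in Ctrl MO embryos. Their log2 ratios were 0.15, 0.16 and 0.25. For *col1a1a* and *col1a1b* the brightest probe pointed down, at -0.14 and -0.12, and the other 3 probes of each pointed up, whereas all 3 probes of *col1a2* lay between 0.21 and 0.31.

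Among the network-forming and cell-bound collagens, *col4a5*, a type IV chain of basement membranes, had a scaled level of 2.96 in *miR-132* MO and 2.59 in Ctrl MO embryos. Its log2 ratio was 0.37, with probes at 0.24 and 0.49. *col8a2*, the other type VIII gene, was at 0.31 on 1 probe. *col17a1a*, whose product crosses the membrane of basal skin cells at hemidesmosomes, was the lowest collagen, at -0.24, with its 3 probes at -0.38, -0.33 and 0.0050. Outside these kinds, *col19a1*, a fibril-associated collagen, was at -0.16 and *col28a2a* at 0.18, each on 1 probe.

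The laminin genes spanned the narrowest range of the 3 families, but with 6 genes they were also the fewest. The spread of the middle of each family, its interquartile range, was 0.16 for laminins, 0.25 for collagens and 0.22 for integrins. *lama1*, *lamb1a* and *lamc1* code for an alpha, a beta and a gamma chain known from the zebrafish notochord. *lamb1a* had scaled levels of -1.23 in *miR-132* MO and -1.37 in Ctrl MO embryos, a log2 ratio of 0.14 with probes between -0.0094 and 0.28. *lamc1* was at -0.23 in *miR-132* MO and -0.066 in Ctrl MO embryos, a log2 ratio of -0.17 with probes at -0.32 and -0.014. *lama1* was at -0.17, but of its 2 probes the one at -0.34 was not well above background on the *miR-132* MO array and the other stood at 0.0052. The scaled levels of *lama1*, over both probes, were -4.16 in *miR-132* MO and -3.99 in Ctrl MO embryos, and no direction is read from them.

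The other laminin chains were also within 1.5-fold. *lama5*, a chain of epidermal and fin basement membrane, had scaled levels of 2.10 in *miR-132* MO and 2.08 in Ctrl MO embryos, a log2 ratio of 0.012 with probes on either side of 0. *lama4*, a chain of vessel basement membrane, was at 0.62 in *miR-132* MO and 0.70 in Ctrl MO embryos, a log2 ratio of -0.079 on 1 probe that became 0.23 with normexp background correction. *lamb4* had scaled levels of -3.57 in *miR-132* MO and -3.59 in Ctrl MO embryos, a log2 ratio of 0.021, and 1 of its 2 probes was not well above background on the *miR-132* MO array. Of the 12 laminin probes, 6 were above 0 and 0 were past 1.5-fold.

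The integrin chains were taken by kind, with no test of the difference. The 8 beta chains had a median log2 ratio of 0.24, with 7 above 0. With only probes well above background on both arrays, 6 of the 8 were above 0, and *itgb5* stood at -0.10. The 6 alpha chains, with *itga2b* taken at its bound, had a median of 0.12, with 4 above 0. With normexp background correction the medians were 0.038 for the beta chains, with 4 above 0, and 0.021 for the alpha chains, with 3 above 0. With the brightest probe they were 0.23 for the beta chains, with 6 above 0, and 0.042 for the alpha chains, with 3 above 0. The integrin past 1.5-fold was *itgb1b*, a gene for the beta 1 chain, which pairs with most alpha chains that bind collagen, laminin and fibronectin. Its probes read 1328 and 311 in *miR-132* MO embryos and 806 and 143 in Ctrl MO embryos. The log2 ratios were 0.48 and 0.88, with a mean of 0.68 (1.60-fold), so that the brighter probe alone stayed under 1.5-fold.

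The other beta 1 genes were spread out. *itgb1b.2* read 1190 in *miR-132* MO and 728 in Ctrl MO embryos, a log2 ratio of 0.46. *itgb1b.1* read 1309 in *miR-132* MO and 1215 in Ctrl MO embryos, and was lower after scaling, at -0.14. *itgb1a* read 64.5 in *miR-132* MO and 47.2 in Ctrl MO embryos, at 0.20, or -0.057 with normexp background correction. These are near relatives, each with 1 or 2 probes, and whether a probe also binds a relative's transcript was not tested.

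The remaining beta chains were *itgb3a* at 0.50 and *itgb3b* at 0.035, *itgb4* at 0.28 and *itgb5* at 0.14. The beta 3 chain pairs with the alpha V and alpha IIb chains. *itgb4*, the beta chain of hemidesmosomes, had its 3 probes close together, between 0.25 and 0.33. *itgb5* had the least agreement of all 43 genes, a range of 1.11 over 4 probes. The probe at 0.89 was not well above background in Ctrl MO embryos, and the other 3 were at 0.020, -0.11 and -0.22, so that the gene stood at -0.10 without the dim probe.

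The highest alpha chain was 1.15-fold higher and the lowest, among those measured on both arrays, 1.14-fold lower. *itga6b*, a laminin-binding chain and partner of *itgb4*, read 1578 in *miR-132* MO and 1160 in Ctrl MO embryos, a log2 ratio of 0.20. *itga11a*, a collagen-binding chain, read 1092 in *miR-132* MO and 799 in Ctrl MO embryos, at 0.21. *itga5*, the fibronectin receptor chain, read 1181 in *miR-132* MO and 916 in Ctrl MO embryos, at 0.12. *itgav*, which binds vitronectin and other ligands, was at 0.11 with probes between -0.036 and 0.22. *itga3b*, a laminin-binding chain, was the lowest integrin of those measured on both arrays, at scaled levels of -3.53 in *miR-132* MO and -3.34 in Ctrl MO embryos and a log2 ratio of -0.19, with both probes below 0. *itga2b*, the platelet and thrombocyte chain known as CD41, was not well above background on the *miR-132* MO array (10.5), against 15.3 in Ctrl MO embryos. Set against the lowest intensity well above background on the *miR-132* MO array (16.8), its level after *miR-132* MO came out lower by at least 1.08-fold. This bound is not firm. It was 0 on the log2 scale with quantile normalization, and a *lama1* probe at 17.9 on the same array was not well above background. The reading of 10.5 also lay under the SD of 19.4 over negative control spots of that array, and no direction is read from it. The genes that belong here by name alone were *itgb1bp1*, at 4721 in *miR-132* MO and 3518 in Ctrl MO embryos and a log2 ratio of 0.18, and *itgbl1* at -0.079.

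Of the 43 genes, 25 had several probes, and in 15 of these all probes pointed one way. The range between the probes of a gene had a median of 0.30. The spot noise of 0.10 is an SD and not a range, so the sizes are not compared. The mean of a gene with a small ratio therefore depends on which probes it holds.

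Genes that process collagen were compared with the chains themselves. Of 43 genes on this list, 27 were measured, with a median log2 ratio of 0.14 and 18 above 0. At least 1.5-fold lower were 0, apart from 1 gene without a probe well above background on the *miR-132* MO array. That gene has only a bound, at a log2 ratio of 0, and could not be placed. At least 1.5-fold higher were 6, and over all genes 3.91% were higher and 8.2% lower. The 6 were *loxl5b*, named as a lysyl oxidase-like crosslinking enzyme, at 1.55, the prolyl hydroxylase genes *p4ha2* at 0.92 and *p4ha1b* at 0.75, the lysyl hydroxylase gene *plod1a* at 0.69, *fkbp10b*, a folding enzyme of the endoplasmic reticulum, at 0.63, and *pcolcea*, an enhancer of propeptide removal, at 0.62. The 3 probes of *p4ha2* lay between 0.80 and 1.02, the 2 of *loxl5b* between 1.43 and 1.67 and the 4 of *plod1a* between 0.56 and 0.86, and the other 3 genes had 1 probe each.

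Other matrix proteins and the integrin linkage had fewer genes past 1.5-fold than the processing list. These counts stand beside 3.91% of all genes at least 1.5-fold higher and 8.2% at least 1.5-fold lower, with no test of any list. Of 39 basement membrane and matrix genes measured, 1 had no probe well above background on the *miR-132* MO array. That gene has only a bound, at -0.24, and whether it was past 1.5-fold lower could not be told. Of all 39, 26 were above 0, with a median of 0.14, and 2 were placed as higher and 1 as lower. The higher ones were *matn3a*, a cartilage matrilin, at 1.19, and *fn1b*, a fibronectin, at 0.86 with 4 probes between 0.81 and 0.93. The lower one was *thbs4a*, a thrombospondin, at -0.62 on 1 probe. Of 23 genes of the machinery that links integrins to actin (*itgb1bp1* among them), 18 were above 0, with a median of 0.11, and *actn1* (alpha-actinin), on 1 probe, was the only one past 1.5-fold, at 0.97.

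Markers of cell types that make these proteins, and of others in the embryo, were set beside them, with no test of any list. Over all genes, 3.91% were at least 1.5-fold higher and 8.2% at least 1.5-fold lower. Notochord markers had a median of 0.25 over 9 genes and lay between -0.21 and 1.61, with 7 above 0. At least 1.5-fold higher were 3: *cmn* (calymmin, a notochord matrix protein) at 1.61, *tbxta* (the notochord transcription factor brachyury) at 1.07 and *loxl5b*. The last is also on the processing list. The summed level of the 9 notochord markers, in units of each array's 75th percentile, was 8.16 on the *miR-132* MO array and 6.61 on the Ctrl MO array. Because intensity depends on the probe, this sum and those below follow the brightest probes of a list. They give no amount of a cell type. Cartilage markers had a median of 0.34 over 8 genes and a summed level of 33.7 on the *miR-132* MO array and 29.4 on the Ctrl MO array. They lay between -0.12 and 0.57, with 5 above 0 and 0 past 1.5-fold. The 6 epidermal markers were all above 0, with a median of 0.28 and summed levels of 333 on the *miR-132* MO array and 274 on the Ctrl MO array. Of these, *krt5* at 0.77 and *krt4* at 0.66 were past 1.5-fold. Their probes differed widely, between 0.094 and 1.53 for the 6 of *krt5* and between -0.15 and 1.17 for the 9 of *krt4*. Of 9 leukocyte markers 8 were above 0, with a median of 0.48 and summed levels of 6.92 on the *miR-132* MO array and 4.65 on the Ctrl MO array. Past 1.5-fold were *lcp1* at 1.01 and *coro1a* at 0.78, both made in white blood cells. Of 12 skeletal muscle markers 4 were above 0, with a median of -0.12 and summed levels of 1015 on the *miR-132* MO array and 1169 on the Ctrl MO array. The muscle actin gene *acta1b* was past 1.5-fold lower, at -1.60, with its 6 probes between -1.72 and -1.30. The tendon gene *tnmd* at -0.75 and the dermal matrix gene *dpt* at -0.59, of the fibroblast and tenocyte list, were also past 1.5-fold lower. The median was -0.26 over 14 endothelial markers (5 above 0), 0.12 over 10 fibroblast and tenocyte markers (6 above 0) and 0.15 over 4 thrombocyte markers (2 above 0), and 0 endothelial and 0 thrombocyte markers were past 1.5-fold. The lowest endothelial marker, at -0.58, lay just inside that limit. Of its 3 probes, 1 was well above background on the *miR-132* MO array. Endothelial summed levels were 9.34 on the *miR-132* MO array and 9.32 on the Ctrl MO array, though the endothelial median was below 0. Those of fibroblasts and tenocytes were 8.90 on the *miR-132* MO array and 7.82 on the Ctrl MO array. Every marker of these lists that was measured was well above background on at least 1 probe of both arrays, except *mpl* of the thrombocyte list, which was not on the *miR-132* MO array and is named after its value was seen. *mpl* has only a bound, at a log2 ratio of 0, and could not be placed. The part of these cell types in the collagen and integrin ratios was not tested.

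**Figure D4:**
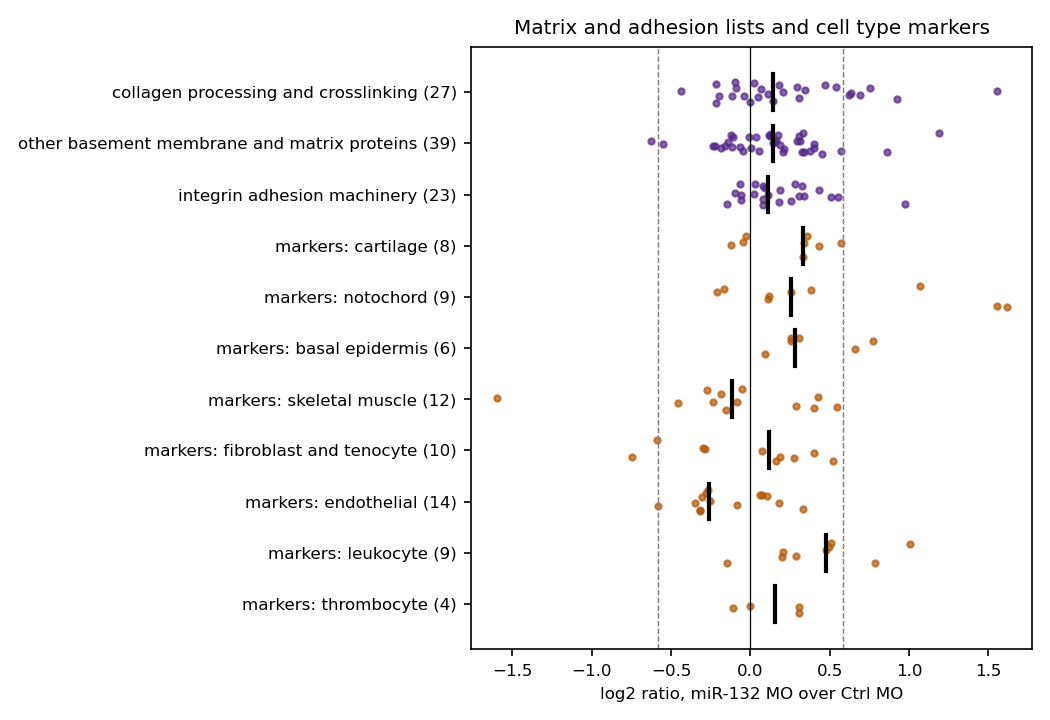
Log2 ratio, *miR-132* MO to Ctrl MO (x axis) of every measured gene in 3 lists of matrix and adhesion genes (purple) and 8 lists of cell type markers (orange), with the number measured in brackets. Black bars are list medians and dashed lines mark 1.5-fold. Collagen processing holds 6 genes beyond the right line and 0 beyond the left. A gene with no probe well above background on the *miR-132* MO array is drawn at its bound. There is 1 such gene each in collagen processing, other matrix proteins and thrombocyte markers.

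The order of the 3 families was compared across processing settings. Their medians kept one order in the main setting and in all 8 settings that change the ratios, with collagens highest and laminins lowest. For median and spike-in scaling this was fixed in advance, since each adds the same amount to every ratio. Dropping the filter on dim probes left the family medians unchanged. The gap between the collagen and integrin medians came down to 0.026 with the brightest probe. The integrin median came down to 0.021 with normexp background correction, against 0.16 in the setting used here. Spike-in scaling added 0.058 to every log2 ratio and gave a collagen median of 0.28.

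**Figure D5:**
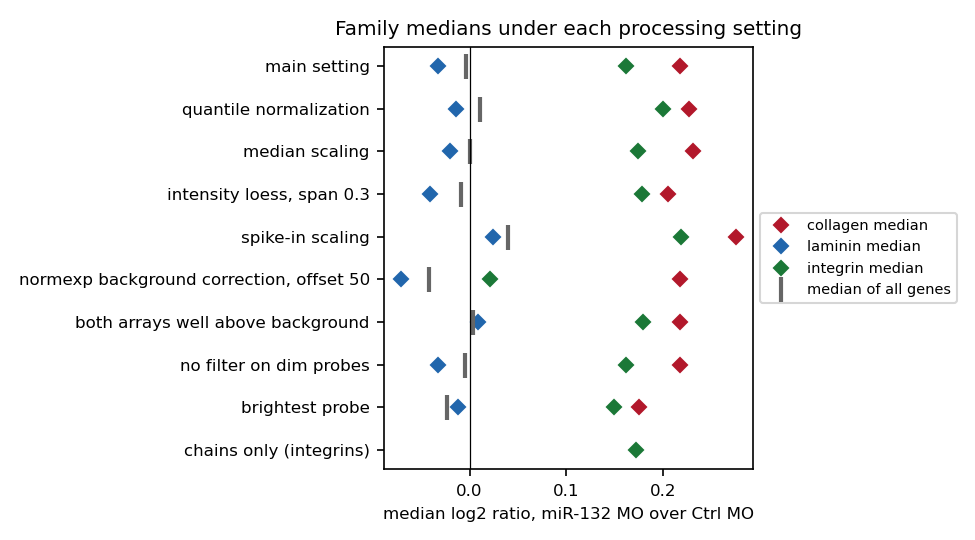
Median log2 ratio, *miR-132* MO to Ctrl MO (x axis) of the collagen, laminin and integrin genes and of all genes (grey bars) under each processing setting (rows). The integrin diamond under normexp, at 0.021, is the one that moved by more than 0.10, the noise of single spots and not of a median.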

How the data were processed

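The authors deposited the spot intensity of 2 one-colour Agilent arrays as written by Agilent Feature Extraction 10.7 (from the submitters' processing notes), background-subtracted within each array and not scaled between arrays. Their table of selected probes (log2 values and a ratio) and a copy of the scanner values with fewer digits were not used. Here log2 intensity minus the array's 75th percentile was averaged over the spots of a probe and the probes of a gene. Outlier-flagged spots (9) were left out, and probes dim on both arrays were dropped. Where a gene had no probe well above background on 1 of the arrays, that side took the array's lowest intensity above background or the probe's own, if higher, and the ratio is a bound. The files hold no gene names, so 25067 of 43603 probes were named through RefSeq accessions in the NCBI table of GRCz12tu, without versions. Every member could be named, and genes of the other lists only where past 1.5-fold, largest first and at most 6 a list, with *mpl* as an exception. Alternative scalings, background corrections, filters, probe choices and thresholds were also run. The members and lists were chosen with earlier results of these data known. The code was tested on simulated data. Normexp came from limma 3.58.1 in R 4.3.3 and loess from statsmodels 0.14.6. Tables were handled in pandas 2.3.3 with numpy 2.4.6 under Python 3.11.15, and matplotlib 3.10.9 drew the plots.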

Additional observations from a re-analysis of the deposited data

How the results depend on the processing

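Each choice was changed in turn: quantile normalization, median scaling, an intensity loess, spike-in scaling, normexp background correction with an offset of 50 (on the median signal, since the files hold no mean signal), probes above background on both arrays, no filter, the brightest probe, a 2-fold threshold and integrin chains only. Naming by RefSeq accession only was not run as an alternative because it is how all probes were named. No paired analysis was possible because 1 array stands for each group, and a slide block could not be fitted. The collagen median stayed between 0.18 and 0.28 and the laminin median between -0.071 and 0.024. The integrin median stayed between 0.15 and 0.22 except with normexp, where it was 0.021, the collagen median exceeded it by 0.20, and it exceeded the laminin median by 0.092. The cause was not tested. The collagen median was the highest of the 3 and the laminin median the lowest in each setting that gives medians, an order that median and spike-in scaling could not change. The laminin median itself was above 0 with spike-in scaling, at 0.024, and with both arrays above background, at 0.0088. With a 2-fold threshold 2 collagens and 0 integrins were higher, and with the brightest probe 0 integrins were. *col9a1b* lay between 1.43 and 1.77 and *col8a1a* between 0.75 and 1.09, past 1.5-fold in all 8 settings that change the ratios. *col5a3b* was under it with normexp, at 0.49, and *col9a2* and *itgb1b* with the brightest probe, at 0.39 and 0.48. Of the 43 genes, 14 had the opposite sign in at least 1 setting, all at or under 0.24 in size. Over all genes, 481 were higher and 1009 lower, against 235 and 573 with normexp, 123 and 441 at 2-fold, and 762 higher with no filter.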

Other observations

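Members whose genes lie next to each other in the reference order of protein-coding genes were set side by side. *itgb1b*, *itgb1b.2* and *itgb1b.1* follow one another in that order, with log2 ratios, *miR-132* MO to Ctrl MO, of 0.68, 0.46 and -0.14. *lamb1a* and *lamb4* are also neighbours, at 0.14 and 0.021. Among the paralog pairs named a and b, the gap between the log2 ratios ran from 0.0036 for *col1a1a* and *col1a1b* and 0.039 for *col27a1a* and *col27a1b* up to 0.97 for *col5a3a* and *col5a3b*, and was wider still for *col9a1a* and *col9a1b*, at 0.22 and 1.72. These are values of 1 array per group and were not tested.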
